A study of Mus musculus with 8 samples.

Results

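Transcript levels of 48 genes that act in mitosis were followed in regenerating mouse liver after knockdown of Tbl1xr1, whose product belongs to the NCoR and SMRT corepressor complexes. The 48 genes were a fixed list of cyclins, mitotic kinases, kinesins, kinetochore, spindle, cytokinesis and condensin genes, chosen by name and found by symbol among 55401 gene identifiers, and all 48 passed the filter on low counts. The list was chosen with earlier results of these data known. All animals were of the C57BL/6J strain, and total RNA of whole liver was sequenced on day 2 after partial hepatectomy. The 4 shTbl1xr1 libraries came from mice given an adeno-associated virus with a short hairpin RNA against Tbl1xr1, and the 4 shNC libraries from mice given the same kind of virus with a control hairpin, both 4 weeks before surgery. The virus was aimed at hepatocytes, so the hairpin was not directed at the other cells whose RNA a whole liver also holds. The labels give no promoter for the hairpin, no sex and no age. They do not say either whether each library is its own mouse, and the spread behind every p-value here is that of libraries, part of which may be technical.

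After partial hepatectomy hepatocytes leave quiescence, copy their DNA and then divide. Genes for the second part of that cycle are switched on late, largely by FOXM1 and the MuvB complex with B-MYB. Cyclin B with its kinase CDK1 then drives entry into mitosis, condensins and topoisomerase compact and untangle the chromosomes, kinetochores attach them to the spindle, and the checkpoint holds back the anaphase-promoting complex (APC/C) until every chromosome is attached. Cytokinesis follows, although many hepatocytes finish mitosis without it and become binucleate. Transcripts of these genes are therefore widely used as a readout of how many cells are between late S phase and division.

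The targeted gene Tbl1xr1 had 2.38, 2.07, 9.24 and 15.9 CPM (counts relative to the library's total, scaled between libraries by TMM) in shTbl1xr1 1 to 4, against 27.2, 35.9, 33.7 and 34.6 CPM in shNC 1 to 4. All 4 shTbl1xr1 libraries lay below every shNC library (two-sided exact permutation p = 0.0286, the smallest that 4 against 4 can give). By edgeR over all genes, the test used for the members below, Tbl1xr1 did not pass an adjusted threshold of 0.05. Libraries held 10728583 to 36720879 counts in shTbl1xr1 and 25811763 to 27537235 counts in shNC. The shTbl1xr1 libraries 1 and 2, the shallow pair, stood apart from the other 6 on the first principal component (59.3% of variance) and gave 11.3% and 14.8% of their counts to mitochondrially encoded genes, against 4.52% to 7.34% in the other 6. The members as a whole, the functional groups and the members with an unadjusted p under 0.05 are therefore also given for the shallow and the deeper pair. The 48 genes together drew 15469, 10686, 50055 and 46660 counts in shTbl1xr1 1 to 4, against 50729, 74956, 33753 and 58935 counts in shNC 1 to 4. The smallest count of any of them was 5, for Kif15 in shTbl1xr1 2.

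Markers of macrophages, endothelial cells and stellate cells were lowest in the shallow pair, while those of other cells did not follow it. The 8 macrophage markers summed to 190 and 205 CPM in shTbl1xr1 1 and 2 and to 490 and 549 CPM in shTbl1xr1 3 and 4, against 434 to 713 CPM in shNC. The 8 endothelial markers summed to 124 to 264 CPM in shTbl1xr1 and 224 to 270 CPM in shNC, and the 8 stellate markers to 160 to 522 CPM in shTbl1xr1 and 270 to 491 CPM in shNC, with the shallow pair lowest in both lists. The 8 hepatocyte markers summed to 53548 to 84367 CPM in shTbl1xr1, against 55516 to 71429 CPM in shNC. Lymphocyte and neutrophil markers were near the limit of detection, at sums of 2.13 to 3.59 CPM for the 8 lymphocyte and 2.63 to 12.5 CPM for the 8 neutrophil markers in shTbl1xr1, against 3.42 to 4.90 CPM and 2.79 to 7.90 CPM in shNC, and Cd8a was at 0 in both shallow libraries. The 7 bile duct markers summed to 37.2 to 237 CPM in shTbl1xr1 and 31.8 to 118 CPM in shNC. Their sums in the shallow pair, 37.2 and 55.0 CPM, lay inside the shNC range. The highest sums of the bile duct and of the neutrophil markers were both in shTbl1xr1 3, of the deeper pair. In whole liver, fewer dividing cells and less RNA per dividing cell cannot be told apart, and dividing hepatocytes cannot be told apart from other dividing cells.

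Genes of late cell cycle are known for a shared promoter layout, in which CCAAT boxes bound by NF-Y stand upstream of a cell cycle genes homology region (CHR) bound by MuvB. Windows from 250 bases before to 50 after the annotated start, from RefSeq on GRCm38.p6, were at hand for 39 of the 48 genes (42 windows). The CHR letters TTTGAA, on either strand, were in 33 of the 42 windows (78.6%), against 17.9% of all 32851 windows of that length. Between 60 bases before and 50 after the start, limits set after the positions were seen, TTTGAA was in 31 of the 42 windows (73.8%), against 5.50% of all windows. CCAAT, on either strand, was in 71.4% of the windows of the 48 genes and in 37.4% of all windows, and the variant CHR TTTAAA in 21.4% and 13.2%. Matches are letters only and show no binding. Among the 42 windows, 29 (69.0%) held CCAAT together with one of the CHR forms, against 10.7% of all windows.

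Promoter windows of 6 members are shown, with CCAAT and both CHR forms on either strand in capitals. Prc1, Ndc80 and Ncapg were members with an unadjusted p under 0.05 in the comparison described next, and Cdk1, Plk1 and Ccnb1 are the central kinases and cyclin of mitotic entry. Coordinates are for GRCm38.p6: Prc1 chr7:80294201-80294500 plus strand, Ndc80 chr17:71526808-71527107 minus strand, Ncapg chr5:45669675-45669974 plus strand, Cdk1 chr10:69352863-69353162 minus strand, Plk1 chr7:122159185-122159484 plus strand and Ccnb1 chr13:100786437-100786736 minus strand.
Prc1: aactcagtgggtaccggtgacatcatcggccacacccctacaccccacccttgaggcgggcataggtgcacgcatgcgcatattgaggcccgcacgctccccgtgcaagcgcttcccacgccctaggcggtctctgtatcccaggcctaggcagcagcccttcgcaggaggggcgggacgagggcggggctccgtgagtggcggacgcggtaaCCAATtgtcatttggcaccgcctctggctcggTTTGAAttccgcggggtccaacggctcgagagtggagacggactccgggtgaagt
Ndc80: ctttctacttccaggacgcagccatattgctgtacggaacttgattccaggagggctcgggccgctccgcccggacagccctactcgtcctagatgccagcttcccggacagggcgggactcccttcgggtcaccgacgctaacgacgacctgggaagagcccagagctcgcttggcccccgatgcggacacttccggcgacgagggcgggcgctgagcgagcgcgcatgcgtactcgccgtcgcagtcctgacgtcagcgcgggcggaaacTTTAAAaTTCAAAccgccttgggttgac
Ncapg: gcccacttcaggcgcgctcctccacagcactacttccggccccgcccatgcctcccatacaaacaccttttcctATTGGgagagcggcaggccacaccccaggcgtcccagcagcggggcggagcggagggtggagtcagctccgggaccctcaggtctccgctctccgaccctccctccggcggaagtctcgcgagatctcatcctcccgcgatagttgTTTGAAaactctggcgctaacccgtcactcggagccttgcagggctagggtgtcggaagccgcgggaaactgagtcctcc
Cdk1: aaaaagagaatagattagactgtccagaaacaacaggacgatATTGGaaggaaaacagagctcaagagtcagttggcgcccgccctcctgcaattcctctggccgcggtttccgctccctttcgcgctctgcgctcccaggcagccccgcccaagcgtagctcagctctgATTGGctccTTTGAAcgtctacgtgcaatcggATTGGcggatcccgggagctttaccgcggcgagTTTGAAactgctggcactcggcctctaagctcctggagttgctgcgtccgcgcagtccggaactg
Plk1: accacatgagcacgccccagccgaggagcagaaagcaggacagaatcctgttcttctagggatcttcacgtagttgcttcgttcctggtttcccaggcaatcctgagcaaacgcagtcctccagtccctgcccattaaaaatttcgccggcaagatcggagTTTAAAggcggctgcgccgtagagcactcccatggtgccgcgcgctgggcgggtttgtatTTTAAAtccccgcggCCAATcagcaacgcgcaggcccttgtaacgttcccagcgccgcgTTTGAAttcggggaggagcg
Ccnb1: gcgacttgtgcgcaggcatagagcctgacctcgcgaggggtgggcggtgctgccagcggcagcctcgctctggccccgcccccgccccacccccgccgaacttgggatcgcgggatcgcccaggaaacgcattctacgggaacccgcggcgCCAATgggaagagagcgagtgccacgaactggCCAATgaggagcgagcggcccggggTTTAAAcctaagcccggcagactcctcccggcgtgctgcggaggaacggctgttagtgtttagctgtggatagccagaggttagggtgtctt

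The window of Prc1 held 1 CCAAT 37 bases before the start and 1 TTTGAA 5 bases before it. Cdk1 had 3 CCAAT boxes, all read on the opposite strand, and 2 TTTGAA, the nearer one 15 bases before the start. Ccnb1 held 2 CCAAT boxes, 99 and 67 bases before the start, and the variant TTTAAA 42 bases before it. In Ndc80 no CCAAT was found in the window, and both CHR forms lay after the start, at 22 and 29 bases. A CHR form thus stood in every window shown, and CCAAT in every one but that of Ndc80. No relation of motif to fold change was tested.

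Per length, members differed widely in level. Mean levels in TPM (each gene's share of transcripts, which allows for length), as deposited, ran from 111 ± 51.0 TPM in shTbl1xr1 and 145 ± 39.2 TPM in shNC (SD, n = 4 each) for Ube2c, the ubiquitin-conjugating enzyme of the APC/C, to 1.45 ± 1.14 TPM in shTbl1xr1 and 2.51 ± 0.649 TPM in shNC for the spindle kinesin Kif15. Next below Ube2c in shNC stood Cdk1, Cdc20, Cenpa and Birc5, at 94.6, 66.2, 46.4 and 58.2 TPM in shTbl1xr1 and 141, 109, 89.1 and 81.8 TPM in shNC. Their ranges over libraries overlapped, so the order among these 5 is not resolved. The proliferation marker Mki67 had 5.49 ± 2.40 TPM in shTbl1xr1 and 10.4 ± 3.38 TPM in shNC, which placed it 29th of 48 by shNC mean, and Foxm1 stood 31st, at 7.29 ± 3.92 TPM in shTbl1xr1 and 9.43 ± 2.31 TPM in shNC. TPM was not scaled between libraries by TMM, and for some genes the groups stood in the other order in CPM. Means in CPM were higher in shTbl1xr1 than in shNC for Ube2c (94.5 against 83.5 CPM) and Cdk1 (81.2 against 76.4 CPM). The same held for Birc5 (50.5 against 48.1 CPM) and Foxm1 (27.4 against 26.4 CPM). Cdc20, Cenpa, Mki67 and Kif15 had lower means in shTbl1xr1 by either measure. The 48 genes summed to 763, 509, 1224 and 781 TPM in shTbl1xr1 1 to 4, against 1195, 1722, 809 and 1437 TPM in shNC 1 to 4. The groups overlapped, since shNC 3 lay below shTbl1xr1 3. In CPM the sums were 1936, 1476, 1612 and 1157 in shTbl1xr1 1 to 4, against 1820, 2448, 1120 and 2007 in shNC 1 to 4. On that scale every shTbl1xr1 library lay inside the shNC range.

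**Figure D1:**
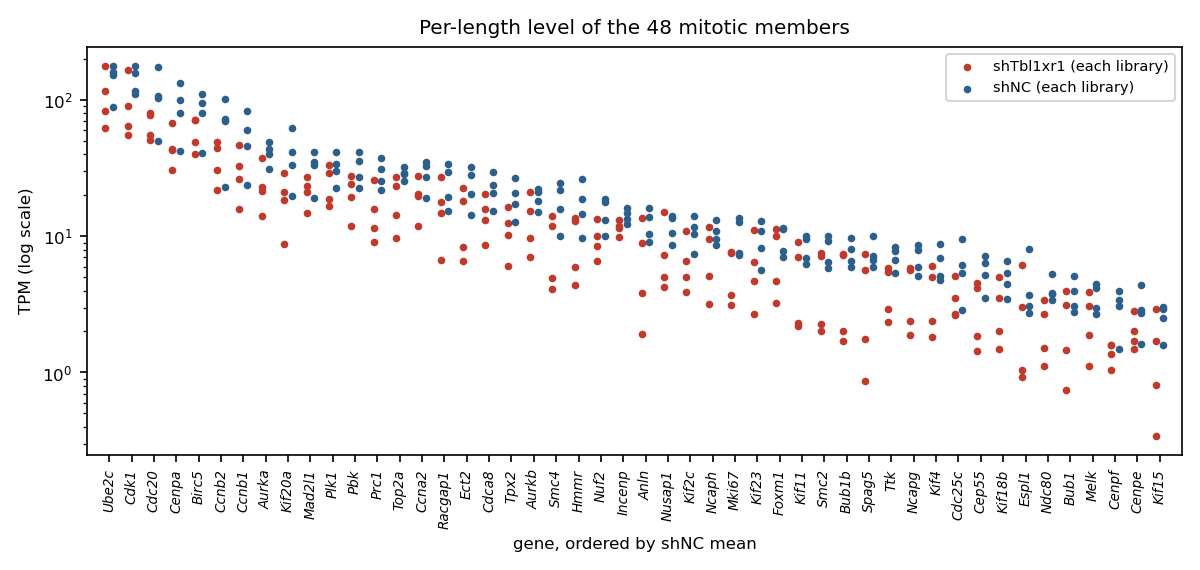
Level of each of the 48 mitotic genes in TPM (log scale), with 1 point per library, red for the 4 shTbl1xr1 and blue for the 4 shNC libraries, ordered by the shNC mean. Ube2c and Cdk1 lead at means of 111 and 94.6 TPM in shTbl1xr1 and 145 and 141 TPM in shNC, and Kif15 is last at 1.45 and 2.51 TPM. TPM is not scaled between libraries by TMM, and in TMM-scaled CPM the means of Ube2c and Cdk1 were higher in shTbl1xr1.

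Most mitotic transcripts had a lower mean in shTbl1xr1 than in shNC, but no single gene passed the test. Of the 48, 43 (89.6%) had a negative log2 fold change of shTbl1xr1 over shNC by edgeR, against 49.4% of all 13908 genes tested. The median of the 48 was -0.33, against 0.0063 over all genes. Adjusted by Benjamini-Hochberg over all genes, 0 of 48 members passed an edgeR threshold of 0.05 (adjusted p from 0.378 to 0.991), where 7 of 13908 genes, or 0.0503%, passed. DESeq2 called 0 of 48 too, where it called 2.14% of the genes to which it gave an adjusted p. Tbl1xr1 itself passed by DESeq2 but was not among the 7 genes that passed by edgeR. Members that did not pass are therefore not shown to be unchanged. At an unadjusted p under 0.05, 4 of 48 members (8.33%) were lower and 0 higher, against 3.71% of all genes lower and 7.90% higher. Those 4 were Prc1, Smc4, Ndc80 and Ncapg.

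None of the 48 separated the groups. For 0 members did all 4 shTbl1xr1 libraries lie below every shNC library, against 3.37% of all genes, and for 0 did all lie above, against 3.88%. In 6 members (Incenp, Ndc80, Kif23, Prc1, Anln and Top2a) 3 of the 4 shTbl1xr1 libraries lay below the shNC range. In 15 members all 4 lay inside it. The share of all genes with either pattern was not counted, so these counts have no background here. The standard errors of the log2 fold changes ran from 0.18 to 0.51 with a median of 0.26, nearly as large as the median difference itself. With library size as the only scaling, the median over all genes moved to -0.27 and that of the members to -0.61, so the difference between them was -0.34 under either scaling.

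**Figure D2:**
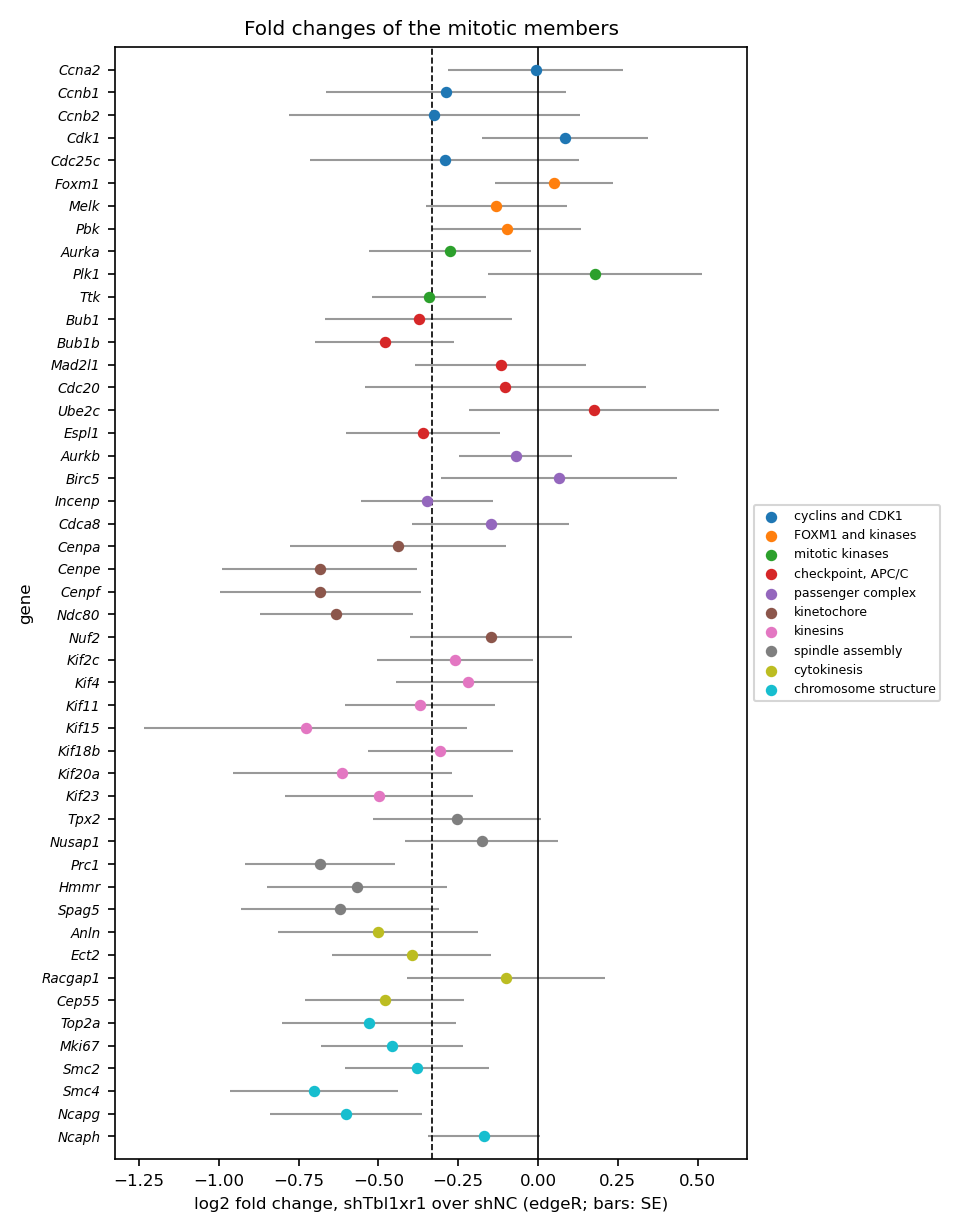
Log2 fold change of shTbl1xr1 over shNC for each member (edgeR, n = 4 each), with bars for the standard error and colours for function. The dashed line marks the median of the 48 members, -0.33, and 43 points lie left of 0.

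Among 6 members of chromosome structure all 6 had negative log2 fold changes (median -0.49). That median came mainly from the shallow pair, at -0.82, while the deeper pair gave -0.23. In the fit of the shallow pair against shNC, 21.1% of all genes were lower and 21.5% higher at an edgeR adjusted p under 0.05. An adjusted p under 0.05 for a member in that pair, here and below, was therefore common among all genes. Smc4, a core ATPase of condensin (chromosome 3, 69004738 to 69034623, plus strand, mm10), had 28.3, 27.3, 34.8 and 38.6 CPM in shTbl1xr1 1 to 4, against 50.8, 70.02, 28.5 and 60.9 CPM in shNC 1 to 4. The 4 shTbl1xr1 values lay close together and 3 of the 4 shNC values above them, while shNC 3 lay among them. Its log2 fold change was -0.70 (SE 0.26, edgeR unadjusted p = 0.0247, adjusted p = 0.405), with -0.92 for the shallow pair (adjusted p = 0.0687) and -0.52 for the deeper pair (adjusted p = 0.608). Ncapg, a condensin I subunit (chromosome 5, 45669919 to 45700546, plus strand), had 10.1, 8.70, 14.5 and 14.7 CPM in shTbl1xr1 and 17.4, 22.7, 12.9 and 20.7 CPM in shNC (log2 fold change -0.60, SE 0.24, adjusted p = 0.408). The shallow pair gave -0.97 (adjusted p = 0.0124) and the deeper pair -0.34 (adjusted p = 0.624). Its partners Smc2 and Ncaph had -0.38 and -0.17.

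Top2a, the topoisomerase that untangles sister chromatids (chromosome 11, 98992943 to 99024189, minus strand), had 37.8, 33.6, 79.4 and 64.5 CPM in shTbl1xr1 1 to 4, against 69.4, 84.2, 70.6 and 87.9 CPM in shNC 1 to 4. The shallow pair was far below the shNC range, shTbl1xr1 4 just below it, and shTbl1xr1 3 within it. The log2 fold change of -0.53 (SE 0.27, edgeR adjusted p = 0.449) was -1.13 for the shallow pair against shNC (adjusted p = 0.000588) and -0.12 for the deeper pair (adjusted p = 0.828). Mki67, which coats mitotic chromosomes (chromosome 7, 135689784 to 135716361, minus strand), had 57.1, 54.4, 54.7 and 55.9 CPM in shTbl1xr1 1 to 4, against 59.7, 99.8, 51.5 and 93.8 CPM in shNC 1 to 4. The shTbl1xr1 libraries were nearly equal (coefficient of variation 2.17%), and shNC spread widely (31.7%), with shNC 1 and 3 near the shTbl1xr1 level and shNC 2 and 4 well above it. Its log2 fold change was -0.46 (SE 0.22, adjusted p = 0.434).

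Centromere and kinetochore genes had negative log2 fold changes in 5 of 5 (median -0.63, the most negative of the 10 functional groups), with medians of -0.37 in the shallow and -0.76 in the deeper pair. Ndc80, which binds microtubules at the outer kinetochore (chromosome 17, 71496100 to 71526857, minus strand), had 3.00, 3.59, 5.02 and 4.07 CPM in shTbl1xr1 1 to 4, against 5.60, 8.23, 5.01 and 5.82 CPM in shNC 1 to 4. All but shTbl1xr1 3 lay below the shNC range, and that library exceeded shNC 3 by a hair. The log2 fold change was -0.63 (SE 0.24, edgeR unadjusted p = 0.0249, adjusted p = 0.405), on 24 to 164 counts per library in shTbl1xr1 and 151 to 252 in shNC. It was -0.91 for the shallow pair (adjusted p = 0.0258) and -0.44 for the deeper pair (adjusted p = 0.554). Its partner in the same complex, Nuf2, had -0.15 (SE 0.25), the kinetochore kinesin Cenpe -0.68 (SE 0.31) and the large kinetochore protein gene Cenpf -0.68 (SE 0.31). Cenpa, the histone variant that marks centromeres, was the most abundant of the group per length and by CPM, at 68.3, 50.8, 45.4 and 30.6 CPM in shTbl1xr1 and 65.0, 94.5, 31.5 and 72.6 CPM in shNC. Its groups overlapped over most of their range (log2 fold change -0.44, SE 0.34, adjusted p = 0.578).

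Spindle genes followed the same direction, 5 of 5 for spindle assembly (median -0.57, with -0.70 in the shallow and -0.45 in the deeper pair) and 7 of 7 for the kinesins (median -0.37, with -0.53 and -0.25). Prc1, which crosslinks antiparallel microtubules of the midzone (chromosome 7, 80294450 to 80316259, plus strand), had the smallest p of all 48 members. It had 34.2, 27.9, 48.8 and 30.5 CPM in shTbl1xr1 1 to 4, against 53.1, 72.5, 40.1 and 62.0 CPM in shNC 1 to 4. Of the shTbl1xr1 libraries only shTbl1xr1 3 reached the shNC range, above shNC 3. The log2 fold change was -0.68 (SE 0.23, edgeR unadjusted p = 0.0162, adjusted p = 0.378), and Prc1 stood 594th by p among the 13908 genes. The shallow pair gave -0.88 (adjusted p = 0.0168) and the deeper pair -0.52 (adjusted p = 0.533). Tpx2, the activator and spindle anchor of Aurora A, had 60.6, 42.3, 42.7 and 31.6 CPM in shTbl1xr1 1 to 4, against 52.5, 71.1, 32.5 and 54.6 CPM in shNC 1 to 4 (-0.25, SE 0.26). Hmmr and Spag5, both spindle pole proteins, had -0.57 and -0.62 (SE 0.28 and 0.31).

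Among kinesins Kif20a, the motor that carries the passenger complex to the midzone, had 81.9, 46.8, 66.4 and 47.3 CPM in shTbl1xr1 1 to 4, against 86.3, 145, 43.0 and 95.8 CPM in shNC 1 to 4 (log2 fold change -0.61, SE 0.34, edgeR adjusted p = 0.474). No shTbl1xr1 library lay below shNC 3. Kif11, which pushes spindle poles apart, had -0.37 (SE 0.24), the midzone kinesins Kif4 and Kif23 -0.22 and -0.50, and the microtubule depolymerase Kif2c -0.26. Kif15 had the most negative estimate of the 48, -0.73, with the widest standard error, 0.51. Its counts were 11, 5, 115 and 208 in shTbl1xr1 1 to 4, against 101, 213, 103 and 160 in shNC 1 to 4, so that estimate came from the shallow pair (log2 fold change -2.22 against shNC, adjusted p = 0.00521), and the deeper pair gave -0.14 (adjusted p = 0.911).

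**Figure D3:**
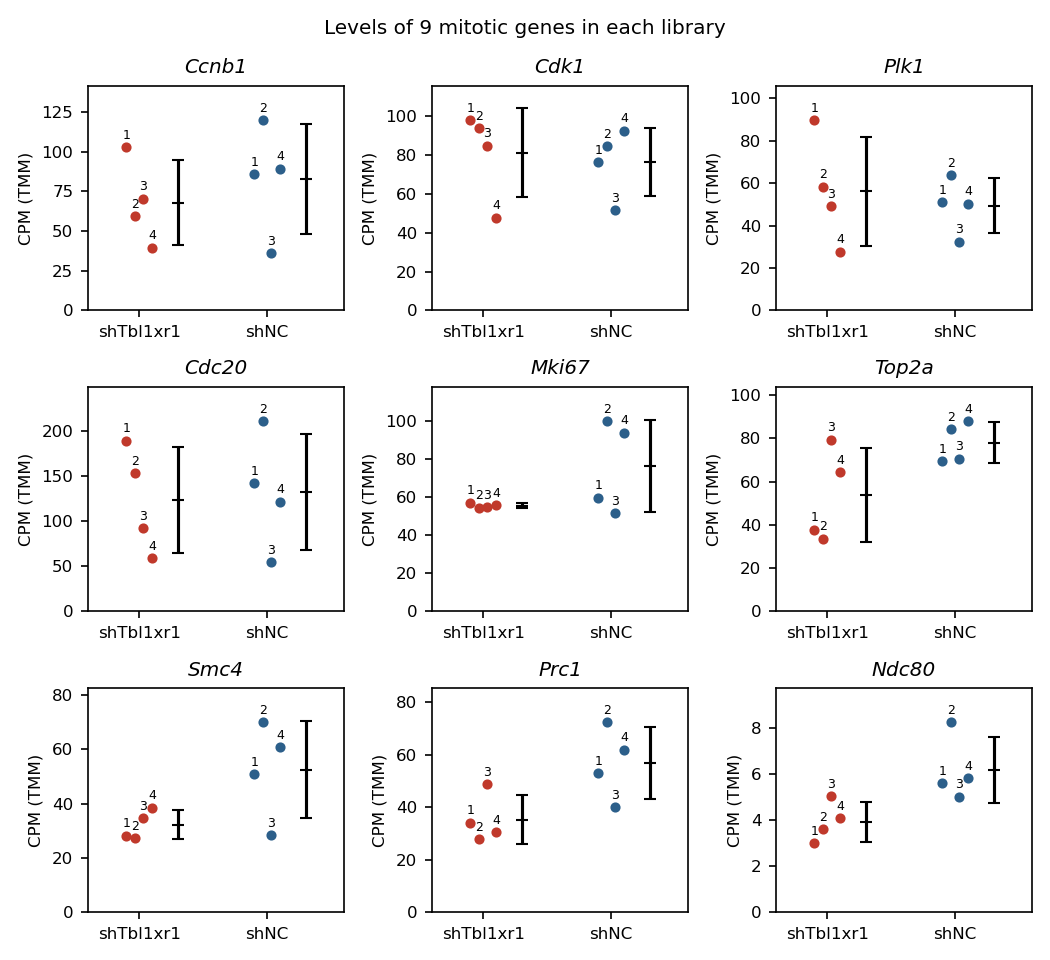
TMM-scaled CPM of 9 members in each library, with shTbl1xr1 in red and shNC in blue, points numbered by replicate, and black bars for the mean and SD (n = 4). Mki67 is nearly level at 54.4 to 57.1 CPM in shTbl1xr1 and spans 51.5 to 99.8 CPM in shNC, while for Ccnb1, Cdk1, Plk1 and Cdc20 both groups spread widely and overlap.

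Cytokinesis genes had negative values in 4 of 4 (median -0.44, with -0.50 in the shallow and -0.29 in the deeper pair). Ect2, the exchange factor that starts the cleavage furrow, had 48.4, 43.8, 56.3 and 46.8 CPM in shTbl1xr1 1 to 4, against 65.6, 85.8, 35.3 and 70.5 CPM in shNC 1 to 4 (log2 fold change -0.40, SE 0.25, edgeR adjusted p = 0.506). Every shTbl1xr1 value lay between shNC 3 and shNC 1. Cep55, needed at the midbody for the final cut, showed the same shape, with 5.51, 5.66, 6.18 and 5.50 CPM in shTbl1xr1 1 to 4, against 9.08, 10.3, 4.58 and 8.04 CPM in shNC 1 to 4 (log2 fold change -0.48, SE 0.25). The scaffold Anln had -0.50 (SE 0.31), and Racgap1, which forms centralspindlin with the kinesin encoded by Kif23, had -0.10 (SE 0.31).

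Over all 8 libraries, genes of mitotic entry had values nearer 0 or wider spreads. Among cyclins, CDK1 and its phosphatase 4 of 5 had negative log2 fold changes, with a median of -0.29. Their median was 0.14 in the shallow and -0.59 in the deeper pair, so nearness to 0 did not hold in the deeper pair. Ccnb1, which encodes cyclin B1 (chromosome 13, 100778650 to 100786570, minus strand), had 103, 59.2, 70.5 and 39.5 CPM in shTbl1xr1 1 to 4, against 86.0, 120, 36.3 and 89.3 CPM in shNC 1 to 4. Both groups spread over more than the distance between their means (log2 fold change -0.29, SE 0.37, edgeR adjusted p = 0.745). Cdk1 had 98.0, 94.0, 84.9 and 47.8 CPM in shTbl1xr1 1 to 4, against 76.6, 84.7, 51.8 and 92.7 CPM in shNC 1 to 4. Here shTbl1xr1 1 and 2 were the highest of the 8 libraries and shTbl1xr1 4 the lowest (log2 fold change 0.08, SE 0.26, adjusted p = 0.904), and the sign turned to -0.26 with libraries scaled by size alone. Ccna2, for cyclin A2, had 87.1, 57.4, 56.2 and 39.2 CPM in shTbl1xr1 1 to 4, against 63.4, 72.3, 37.4 and 67.5 CPM in shNC 1 to 4 (-0.0077, SE 0.28), a sign that turned with DESeq2's size factors. Ccnb2 and Cdc25c had -0.32 and -0.29 (SE 0.46 and 0.42).

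Foxm1, the transcription factor of this programme, had 32.4, 23.8, 27.8 and 25.5 CPM in shTbl1xr1 1 to 4, against 24.1, 30.1, 19.9 and 31.5 CPM in shNC 1 to 4 (log2 fold change 0.05, SE 0.18, edgeR adjusted p = 0.923). The values interleaved, and the sign turned with libraries scaled by size alone (-0.25) and with upper quartile scaling (-0.027). The kinase gene Melk had 8.01, 5.39, 7.92 and 6.25 CPM in shTbl1xr1 1 to 4, against 6.31, 8.79, 5.94 and 9.20 CPM in shNC 1 to 4 (-0.13, SE 0.22). Pbk, another kinase gene, had 45.8, 31.3, 29.0 and 26.9 CPM in shTbl1xr1 1 to 4, against 34.6, 44.3, 24.2 and 38.7 CPM in shNC 1 to 4 (-0.10, SE 0.23). For both the groups overlapped over most of their range. The median of the 3 genes was 0.086 in the shallow and -0.098 in the deeper pair.

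Of the mitotic kinases Plk1, which acts from entry to cytokinesis, had 89.6, 58.3, 49.1 and 27.7 CPM in shTbl1xr1 1 to 4, against 51.1, 63.7, 32.3 and 50.4 CPM in shNC 1 to 4. It had the highest estimate of the 48, 0.18 (SE 0.34, edgeR adjusted p = 0.826), with shTbl1xr1 1 the highest and shTbl1xr1 4 the lowest of the 8 libraries, and it turned to -0.20 with libraries scaled by size alone. Aurka, the spindle pole kinase, had -0.27 (SE 0.25). Ttk, which starts the spindle checkpoint, had 12.02, 11.05, 11.3 and 10.4 CPM in shTbl1xr1 1 to 4, against 14.96, 16.9, 10.3 and 14.5 CPM in shNC 1 to 4 (-0.34, SE 0.18, adjusted p = 0.458). The median of the 3 kinases was -0.046 in the shallow and -0.39 in the deeper pair.

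In the spindle checkpoint and APC/C group 5 of 6 had negative values (median -0.24, with -0.25 in the shallow and -0.29 in the deeper pair). The checkpoint kinase-like gene Bub1b had 10.9, 10.4, 15.3 and 15.99 CPM in shTbl1xr1 1 to 4, against 17.9, 23.0, 13.4 and 19.5 CPM in shNC 1 to 4 (log2 fold change -0.48, SE 0.22, edgeR adjusted p = 0.426). The shallow pair lay below the shNC range (-0.80, adjusted p = 0.018) and the deeper pair inside it (-0.24, adjusted p = 0.711). Bub1 had -0.37 (SE 0.29), the separase gene Espl1 -0.36 (SE 0.24) and Mad2l1, which blocks the APC/C activator CDC20, -0.12 (SE 0.27). Cdc20 itself had 189, 153, 92.4 and 59.3 CPM in shTbl1xr1 1 to 4, against 142, 211, 54.8 and 121 CPM in shNC 1 to 4, a wide and overlapping range in each group (-0.10, SE 0.44, adjusted p = 0.935). Ube2c had 0.17 (SE 0.39) and was -0.20 with libraries scaled by size alone.

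The chromosomal passenger complex, which corrects faulty attachments, had 3 negative values of 4 (median -0.11, with 0.049 in the shallow and -0.28 in the deeper pair). Incenp, its scaffold, had 16.3, 15.6, 25.8 and 18.9 CPM in shTbl1xr1 1 to 4, against 21.96, 29.6, 19.6 and 26.9 CPM in shNC 1 to 4 (log2 fold change -0.35, SE 0.21, edgeR adjusted p = 0.493). Birc5, which encodes survivin, had 81.7, 52.2, 39.4 and 28.8 CPM in shTbl1xr1 1 to 4, against 51.5, 63.4, 23.2 and 54.2 CPM in shNC 1 to 4 (0.07, SE 0.37), and turned to -0.32 with libraries scaled by size alone. Its kinase subunit gene Aurkb and the borealin gene Cdca8 had -0.07 and -0.15. Over all 8 libraries the scaffold gene thus had the most negative value of the complex, with a smaller standard error than Birc5. That order did not hold in both pairs. Incenp had -0.62 in the shallow and -0.14 in the deeper pair. In the deeper pair Aurkb, Cdca8 and Birc5 were more negative, at -0.19, -0.38 and -0.50.

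Within shNC the members varied together from library to library, and their average level was widest apart there. Relative to the shNC mean, the average log2 level of the 48 was -0.14, -0.46, -0.14 and -0.55 in shTbl1xr1 1 to 4, against -0.01, 0.43, -0.59 and 0.17 in shNC 1 to 4. Thus the lowest library of all was shNC 3 and the highest shNC 2. Within shNC, shNC 2 held the highest value of 40 members and shNC 3 the lowest of 45, and the highest shNC library exceeded the lowest by a median of 1.98 times (1.27 to 4.71 over the members). Within shTbl1xr1 the functions went apart, with an average of 0.49 for the cyclin and CDK1 genes and -0.62 for chromosome structure in shTbl1xr1 1. There shTbl1xr1 1 held the highest value of 23 members and shTbl1xr1 3 of 17, shTbl1xr1 4 held the lowest value of 26 members and shTbl1xr1 2 of 18, and the median ratio was 1.77 times. Without shNC 2, 36 of 48 values were negative with a median of -0.18 and 0 had an unadjusted p under 0.05 as lower (2.10% of all genes). Without shNC 3, 47 were negative with a median of -0.47, and 14 were lower at an unadjusted p under 0.05 (2.73% of all genes).

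Remaining Tbl1xr1 and mitotic level can be set side by side. The shTbl1xr1 4 library kept the most Tbl1xr1 of its group (15.9 CPM) and had the lowest mean mitotic level of the 4. The least Tbl1xr1 was in shTbl1xr1 2, which had the next lowest mean mitotic level, at -0.46. The shTbl1xr1 1 library had little Tbl1xr1 (2.38 CPM) and a mean mitotic level equal to that of shTbl1xr1 3, at -0.14. With 4 libraries, 2 of which stand apart, no relation was tested. The 7 erythroid markers summed to 737, 686, 999 and 446 CPM in shTbl1xr1 1 to 4, against 585, 1425, 475 and 990 CPM in shNC 1 to 4, with their extremes in shNC 2 and shTbl1xr1 4. Slc4a1 was at 0 in shTbl1xr1 1. The part of red blood cell RNA in the mitotic values was not tested.

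**Figure D4:**
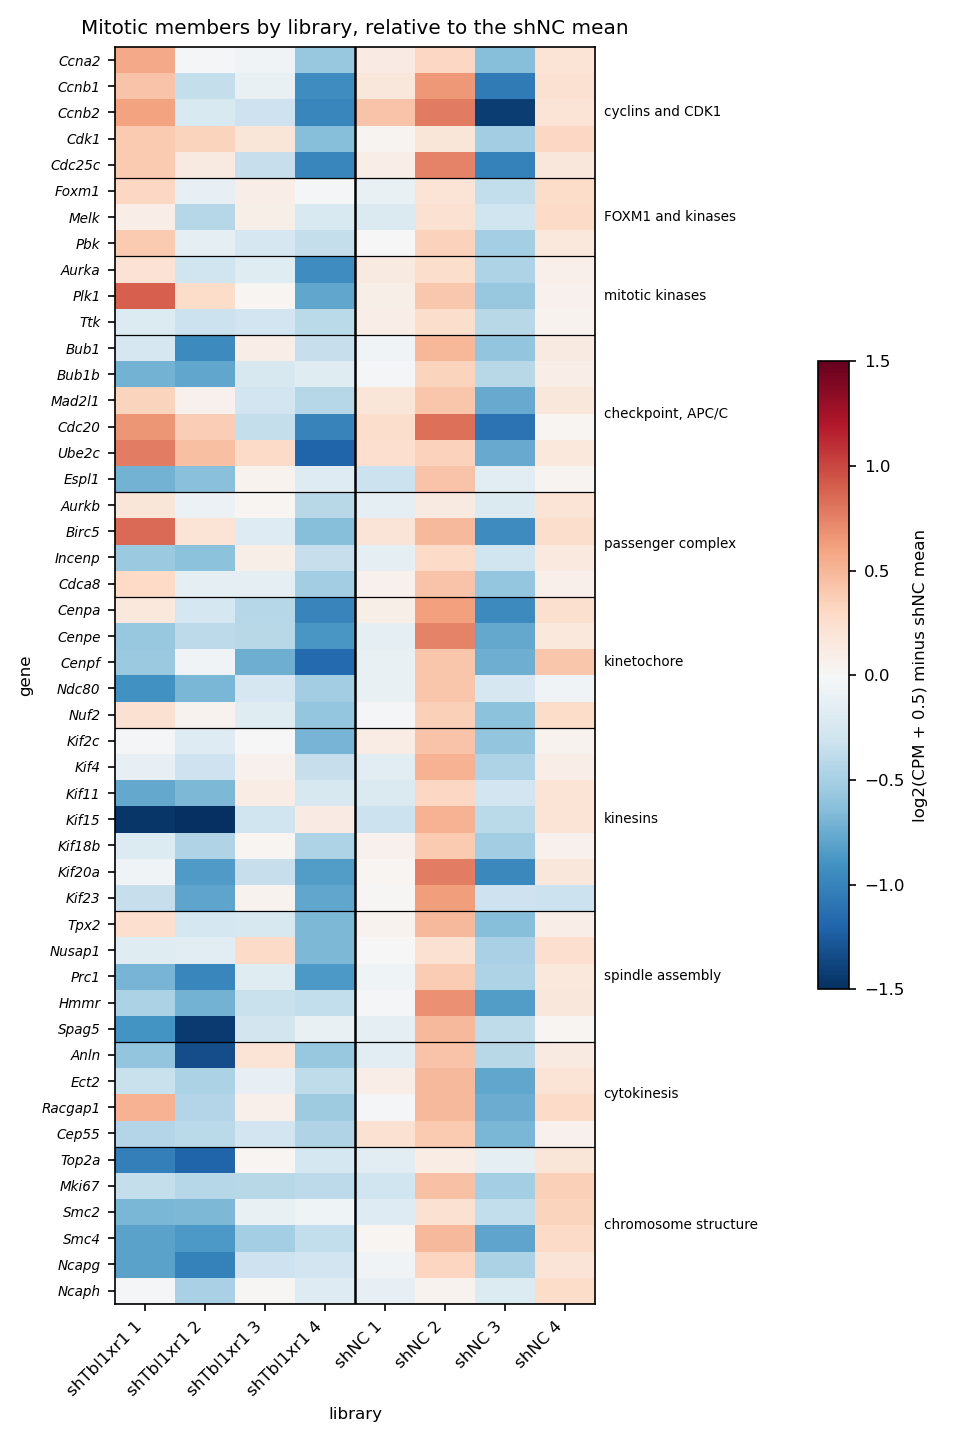
Level of each member in each library as log2(CPM + 0.5) minus the mean of the 4 shNC libraries, grouped by function, with shTbl1xr1 left of the line and shNC right of it, and colours that saturate at 1.5 in either direction. The shNC 2 column is almost all red and the shNC 3 column almost all blue, while in the shallow shTbl1xr1 1 the cyclin, Plk1, Cdc20 and Birc5 rows are red and the Top2a, Ndc80 and Kif15 rows blue.

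The shallow and deeper shTbl1xr1 pairs gave different pictures by function. In shTbl1xr1 3 and 4 against the 4 shNC libraries, 47 of 48 members had negative log2 fold changes with a median of -0.36, and 0 passed, where 0.0478% of all genes did (1 member was lower at an unadjusted p under 0.05). In that pair the 5 cyclin and CDK1 genes had the second most negative median of the 10 groups (-0.59, all 5 negative), after the kinetochore genes (-0.76), and Cenpf was the most negative member (-1.05, edgeR adjusted p = 0.356). In shTbl1xr1 1 and 2 against the same shNC libraries, 33 of 48 were negative with a median of -0.28. Of the genes also tested over all 8 libraries, 7531 of 13893 were negative in this pair and 6941 of 13897 in the deeper pair. In the shallow pair 12 members (25.0%) passed as lower and 0 as higher, where 21.1% of all genes passed as lower and 21.5% as higher. The 12 were Bub1b, Espl1, Incenp, Ndc80, Kif11, Kif15, Prc1, Spag5, Anln, Top2a, Smc2 and Ncapg. The cyclin and CDK1 group had a median of 0.14 in the shallow pair, with 1 of 5 negative. Both fits share the shNC libraries, and the difference between the pairs was not tested. The shallow pair also kept less Tbl1xr1 than the deeper pair. Depth, mitochondrial share and remaining Tbl1xr1 thus cannot be told apart between the pairs.

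Fold change also varied with transcript length, in opposite directions in the pairs. Over the 48 members, Spearman's rho between mean transcript length and log2 fold change was -0.57 for the shallow pair and 0.28 for the deeper pair, as a description, since all members share the same libraries. Over all genes tested the same rho was -0.51 and 0.24. With all 8 libraries rho was -0.47 over the members and -0.38 over all genes tested. Members under 2000 bases then had a median of -0.13 and those of 3000 or more -0.46. Over all genes of those lengths the medians with all 8 libraries were 0.23 and -0.13. In the shallow pair the 12 members under 2000 bases had a median of 0.09 with 3 negative, and the 21 of 3000 bases or more a median of -0.65 with 20 negative. Over all genes of those lengths the medians were 0.46 and -0.50, so the median of the members lay below that of all genes in either length class. In the deeper pair the same members had medians of -0.44 and -0.24, against -0.09 and 0.10 over all genes. The functional contrast between cyclins and condensin or kinesin genes in the shallow pair therefore moves with length. Fold changes over all 8 libraries, by which the functional groups were compared, varied with length too. The part of length in either was not tested.

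**Figure D5:**
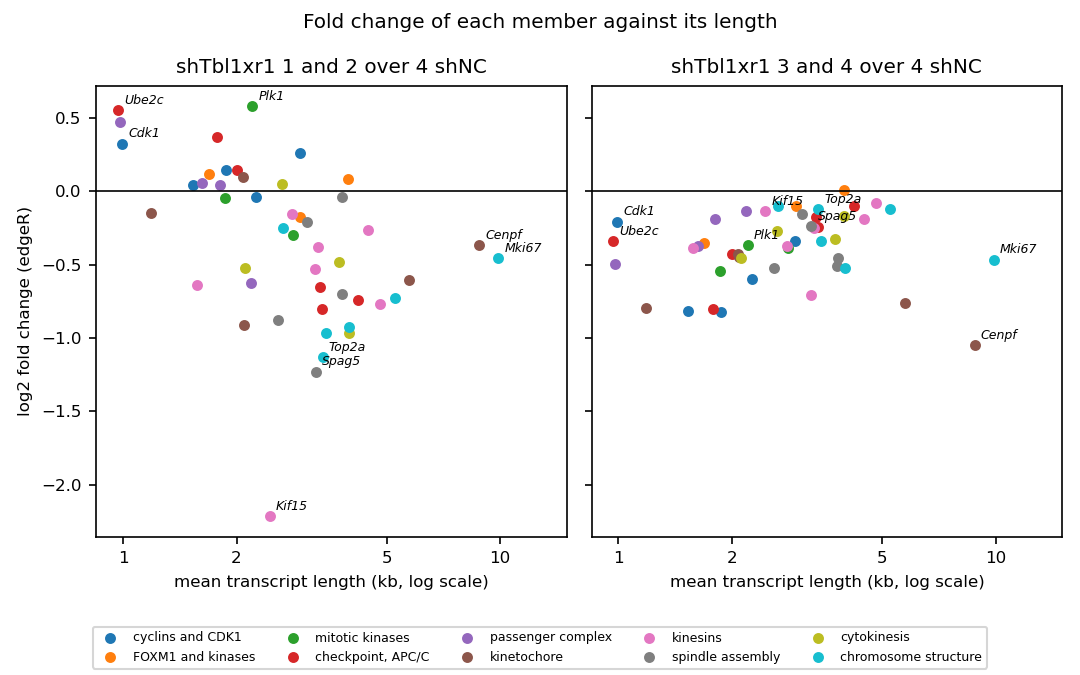
Log2 fold change (edgeR) of each member against its mean transcript length in kilobases (log scale), for shTbl1xr1 1 and 2 on the left and shTbl1xr1 3 and 4 on the right, each over the 4 shNC libraries, coloured by function. On the left the points slope down, from Ube2c and Cdk1 above 0 to the long transcripts below it (rho -0.57). On the right they slope weakly up (rho 0.28).

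Other genes of the cell cycle, listed by name, gave smaller medians. Of 78 further mitotic genes 56 (71.8%) were negative (median -0.19), where 49.4% of all genes were. Of the 78, 0 passed over all genes, and 4 (5.13%) were lower and 0 higher at an unadjusted p under 0.05, against 3.71% of all genes lower and 7.90% higher. Their median was -0.15 in the shallow and -0.28 in the deeper pair. The 4 were Aspm, Knl1, Kif18a and Kif20b. Aspm, a spindle pole protein gene, had the smallest p, at 8.64, 9.25, 11.4 and 10.6 CPM in shTbl1xr1 1 to 4, against 14.3, 24.0, 11.8 and 17.2 CPM in shNC 1 to 4 (log2 fold change -0.75, SE 0.23, edgeR adjusted p = 0.343). Its groups did not overlap, although shTbl1xr1 3 and shNC 3 were close. Aspm, Knl1 and Fbxo5 (Knl1 and Fbxo5 named after their values were seen) were the 3 of 78 with every shTbl1xr1 library below shNC, or 3.85%, against 3.37% of all genes.

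Lists of regulators and of replication genes had medians near 0. Counts of negative values in them stand beside 49.4% of all genes. Of 12 DREAM and MuvB subunits 8 were negative (median -0.14), and the smallest p was that of Lin52. It had 5.26, 5.94, 6.44 and 8.63 CPM in shTbl1xr1 1 to 4, against 8.68, 7.28, 8.70 and 9.06 CPM in shNC 1 to 4 (log2 fold change -0.34, SE 0.20, edgeR adjusted p = 0.477). Of 15 APC/C core subunits 7 were negative (median 0.08), and Cdc16 had 22.03, 18.1, 25.2 and 23.7 CPM in shTbl1xr1 1 to 4, against 24.9, 30.8, 29.2 and 28.3 CPM in shNC 1 to 4 (-0.34, SE 0.15, adjusted p = 0.426). In both genes 1 shTbl1xr1 library reached the shNC range. Of 44 DNA replication genes 28 were negative (median -0.13), and Gins3 had 2.25, 2.07, 2.61 and 2.36 CPM in shTbl1xr1 1 to 4, against 3.62, 4.12, 2.75 and 3.51 CPM in shNC 1 to 4 (-0.58, SE 0.22, adjusted p = 0.405). Of 17 regulators of G1 phase 11 were negative (median -0.08), and the gene of cyclin D1, Ccnd1, had 68.7, 49.7, 107 and 94.6 CPM in shTbl1xr1 1 to 4, against 229, 198, 146 and 196 CPM in shNC 1 to 4 (-1.26, SE 0.26, adjusted p = 0.180). For Gins3 and Ccnd1 the groups did not overlap. All 4 shTbl1xr1 libraries lay below shNC for 0, 0, 2 and 1 genes of the 4 lists, in the order above. That was 0%, 0%, 4.55% and 5.88% of each list, against 3.37% of all genes. In each of these 4 lists 0 genes passed edgeR's test over all genes, and 0, 1, 2 and 3 genes in that order (0%, 6.67%, 4.55% and 17.6%) were lower and 0 higher at an unadjusted p under 0.05, against 3.71% of all genes lower and 7.90% higher. The medians of the 4 lists were -0.35, 0.23, -0.19 and -0.21 in the shallow and -0.094, -0.079, -0.087 and -0.11 in the deeper pair.

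By library, the replication genes did not share the pattern of the mitotic genes within shNC. Their mean log2 level relative to the shNC mean was -0.08, -0.26, -0.35 and 0.17 in shTbl1xr1 1 to 4, against -0.15, -0.12, 0.04 and 0.23 in shNC 1 to 4. Thus shNC 3, the lowest library for the mitotic genes, was near the mean for replication, and shTbl1xr1 4, the next lowest, was above it. The 78 further mitotic genes followed the members, at -0.07, -0.33, -0.11 and -0.37 in shTbl1xr1 and 0.03, 0.36, -0.53 and 0.14 in shNC.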

How the data were processed

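Whole liver RNA of 8 libraries, 4 shTbl1xr1 and 4 shNC, was analysed. Per the file headers, the authors deposited for each library an expected count and a TPM value for each of 55401 genes. Per the submitters' processing notes mm10 was the build and the tools were DESeq2 1.30.1, RSEM and STAR, but no options, strand setting or annotation release are named. RSEM divides fragments that align to several genes, so genes with copies are uncertain. Of the members Ccnb1, Ccnb2 and Kif4 have a pseudogene named after them, with 0 to 24 counts per library. Symbols came for 55141 identifiers from GENCODE release M21 (GRCm38, as mm10), without version suffix.

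Expected counts were rounded, filtered by filterByExpr (13908 genes), scaled by TMM and compared by edgeR 4.0.16 (R 4.3.3), using its robust quasi-likelihood test with Benjamini-Hochberg adjustment over all genes tested, at 0.05. The standard error is the log2 fold change divided by the square root of F. Average log2 levels of a gene list in a library were taken with an edgeR prior count of 2. The deposited TPM values were used for levels between genes and, as log2(TPM + 0.5), in limma 3.58.1. DESeq2 1.42.0 and sva 3.50.0 served as alternatives. Depth ran from 10728583 to 36720879 counts per library, so precision was lowest in shTbl1xr1 1 and 2.

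The 48 members, the 10 functional groups and the other lists were chosen with earlier results of these data known. Per-library values are given for the member of smallest p and of highest mean CPM in each functional group, for Mki67, Ccna2, Ccnb1, Cdk1, Foxm1, Plk1 and Tbl1xr1 in any case, and for the smallest p of each other list. Other genes given library by library were chosen after their values were seen.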

Additional observations from a re-analysis of the deposited data

How the results depend on the processing

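Of 48 members, 0 passed an adjusted threshold of 0.05 under the main test and under every other way of processing tried but 1, the shallow pair alone, where 12 passed as lower. The median log2 fold change of the members stayed negative throughout, at -0.47 to -0.18 with 1 library left out, -0.33 with all, and -0.74 with limma on TPM, where the median of all genes was -0.40. The members lower at an unadjusted p under 0.05 numbered 4 in the main test (3.71% of all genes), 9 with upper quartile scaling (5.41%), 14 with library size alone (6.38%), 8 with no filter (2.81%), 14 with limma on TPM (10.1%), 1 with the deeper libraries (4.62%) and 13 with the shallow pair (26.7%, close to the members' share). With 1 library left out they numbered 0 (without shNC 2, 2.10% of all genes) to 14 (without shNC 3, 2.73%), with 10 without shTbl1xr1 3 (5.96%), 7 without shTbl1xr1 4 (11.1%), 1 without shTbl1xr1 1 (2.37%), and 2 without shTbl1xr1 2 (2.35%) or shNC 4 (2.07%). The cause of these differences was not tested.

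Of all genes, 7 passed in the main test, 4 with library size alone, 13 with no filter, 291 with DESeq2, 32 with limma-voom and sample weights, 2 with limma on TPM, 42 with 1 surrogate variable, 6094 with the shallow pair, and 0 (without shNC 1, 2 or 4) to 34 (without shTbl1xr1 4) with 1 library left out. Tbl1xr1 passed with DESeq2 (-2.13), 1 surrogate variable (-1.67) and the shallow pair (-3.88), against -2.07 in the main test (adjusted p = 0.290), and its adjusted p ran from 6.6e-05 to 0.579 over the alternatives other than leaving out 1 library.

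Of the genes named by rule, the sign of 7 near 0 turned under some setting, and other members turned as well, since 15 members were positive in the shallow pair against 5 in the main test. With library size alone, limma on TPM, 1 surrogate variable and the deeper libraries, Cdk1 gave -0.26, -0.68, -0.17 and -0.21, Plk1 -0.20, -0.41, -0.29 and -0.37, and Birc5 -0.32, -0.44, -0.41 and -0.50. Birc5 gave -0.025 and Foxm1 -0.027 with upper quartile scaling, and Foxm1 -0.25 with library size alone, -0.0078 with sample weights and -0.47 on TPM. The shallow pair gave 0.12 for Pbk, 0.37 for Cdc20 and 0.26 for Ccna2. Sample weights gave 0.12 for Cdc20 and 0.017 for Ccna2, DESeq2 0.011 for Ccna2 and its size factors in edgeR 0.010 for Ccna2. With 1 library left out the ranges were -0.064 to 0.27 for Cdk1, -0.29 to 0.026 for Pbk, -0.14 to 0.41 for Plk1, -0.38 to 0.21 for Cdc20, -0.27 to 0.26 for Birc5, -0.24 to 0.15 for Ccna2 and -0.065 to 0.14 for Foxm1.

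The labels number the libraries 1 to 4 in both groups. Deviations of same-numbered libraries correlated at 0.38, -0.07, 0.30 and 0.12, so the numbers were not taken as pairs. With a replicate block 5 genes and 0 members passed, 5 members were lower at an unadjusted p under 0.05, and the median was -0.31. Depth limits the low members, above all Kif15, in shTbl1xr1 1 and 2.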
